A study of Mus musculus with 10 samples.

Results

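The collagen genes are those whose symbol has the form of an alpha chain, such as Col2a1, and the count table of the series holds 44 of them among 33006 genes. Collagens are extracellular proteins made of chains that wind into a triple helix. Fibrillar collagens build the cables of connective tissue and cartilage, type IV collagens form the sheet of basement membranes, and FACIT collagens (fibril-associated, with interrupted triple helices) decorate the surface of fibrils. Basement membrane proteins are among the earliest matrix proteins of the embryo, whereas the fibrillar collagens of cartilage, bone and skin belong to differentiated mesenchyme. Many genes of differentiated cells carry H3K27me3 in embryonic stem cells, the histone mark set by the Polycomb complex PRC2.

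All samples came from E14 mouse embryonic stem cells whose NPM1, a nucleolar histone chaperone, carries a degron that auxin activates, and the RNA and ChIP-seq file headers name clone 38. Every culture held LIF with PD0325901 (a MEK inhibitor, 1 µM) and CHIR99021 (a GSK3 inhibitor, 3 µM), and the cells were arrested in G1 and then released. RNA was taken 12 h after release, in 2 libraries without auxin and 2 with auxin, and H3K27me3 was mapped in cells without auxin by ChIP-seq at 6 h (1 sample) and in control cells by CUT&RUN at 12 h (1 sample). No RNA library combined auxin with untagged NPM1, so an effect of auxin itself and an effect of losing NPM1 cannot be told apart. The labels do not say whether replicates were separate cultures. The p-values therefore set group differences only against the spread of these libraries, and that spread may be technical.

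The 4 RNA libraries held 13353446 to 16046290 counted fragments, of which 6799 to 9310 fell on collagen genes. Mitochondrial transcripts took 3.46 to 4.96% of the fragments. Npm1 itself stood at 1058 and 951 CPM (the fragments of a gene divided by the TMM-scaled size of its library and scaled to the usual common total) without auxin and at 843 and 767 CPM with it. The degron acts on the protein, so these values do not check the labels. The 8 stem cell markers summed to 5802 and 5991 CPM without auxin and 5485 and 5570 CPM with it. All 8 were tested, and 4 were called lower (Pou5f1, Sox2, Zfp42 and Esrrb) and 2 higher (Nanog and Fgf4), named after their values were seen. Among all tested genes, 14.5% were called lower and 13.0% higher. Sox2 lost its call without replicate 1 without auxin (edgeR adjusted p = 0.101). Cyp1a1, a target of the aryl hydrocarbon receptor AhR, which binds indoles, was called higher with auxin (log2 fold change 7.91, SE 0.18, edgeR quasi-likelihood adjusted p = 5.28e-10). The part of that receptor in the collagen results was not tested.

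Upstream sequences are shown for 3 of the genes called with auxin: Col9a2, which rose and had an H3K27me3 peak at its start in both assays, and Col11a1 and Col18a1, which changed in opposite directions and had no peak. Col2a1, also called, had no RefSeq window. They are RefSeq promoter windows (build GRCm38.p6), up to 250 bases long, ending at the base before the outermost exon of the gene in the count table. Capitals mark CpG dinucleotides. The regions are chr4:121039316-121039384 on the plus strand for Col9a2, chr3:114030290-114030539 on the plus strand for Col11a1 and chr10:77166549-77166780 on the minus strand for Col18a1.
Col9a2: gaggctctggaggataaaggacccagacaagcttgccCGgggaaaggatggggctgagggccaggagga
Col11a1: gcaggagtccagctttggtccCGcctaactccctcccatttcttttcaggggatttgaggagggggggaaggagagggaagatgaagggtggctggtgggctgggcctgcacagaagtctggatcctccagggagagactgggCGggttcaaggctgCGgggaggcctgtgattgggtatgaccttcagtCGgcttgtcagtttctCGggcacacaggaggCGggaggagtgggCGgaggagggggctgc
Col18a1: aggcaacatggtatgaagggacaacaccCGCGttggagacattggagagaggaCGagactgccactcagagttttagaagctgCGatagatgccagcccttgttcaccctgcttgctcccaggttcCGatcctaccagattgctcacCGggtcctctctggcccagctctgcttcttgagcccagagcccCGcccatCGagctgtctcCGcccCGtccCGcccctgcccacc
The Col9a2 stretch is short, at 69 bases with 1 CpG, because the RefSeq start lies 181 bases inside the first exon of the count table. The Col11a1 stretch held 7 CpG in 250 bases and the Col18a1 stretch 11 in 232 bases.

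Most collagen genes gave few fragments in these cells. Of the 44 genes, 21 passed the expression filter and were tested, 20 had fragments but did not pass it, and 3 (Col19a1, Col4a6 and Col28a1) had none in any library. In 12 genes the 4 libraries together held fewer than 10 fragments, and 32 of the 176 library values were 0. A count of 0 allows up to 3 fragments, or 0.178 to 0.221 CPM depending on the library, a limit that covers counting error only. Per kilobase of exon, 6 collagen genes exceeded 1 CPM per kb without auxin.

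Col18a1, a multiplexin of basement membranes and the precursor of endostatin, stood far above the others, at 66.3 ± 2.90 CPM per kb (SD, n = 2). It held 75.2% and 73.5% of all collagen fragments in the libraries without auxin. Col4a1, an obligate partner of Col4a2 in the common type IV trimer, followed at 7.32 ± 0.318 CPM per kb. Next were Col5a1 at 3.14 ± 0.00961, Col4a2 at 2.95 ± 0.0956, the FACIT chain Col9a2 at 2.71 ± 0.200 and Col11a1 at 2.03 ± 0.238 CPM per kb. In these libraries the 6 genes kept this order without overlap, though Col4a2 at its lowest (2.89 CPM per kb) barely exceeded Col9a2 at its highest (2.85 CPM per kb). The main chains of connective tissue were low: Col1a1 at 0.331, Col1a2 at 0.0882 and Col2a1 at 0.453 CPM per kb. Col3a1, which forms fibrils in skin and vessels, had 2 and 7 fragments without auxin and 5 and 5 with it.

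**Figure D1:**
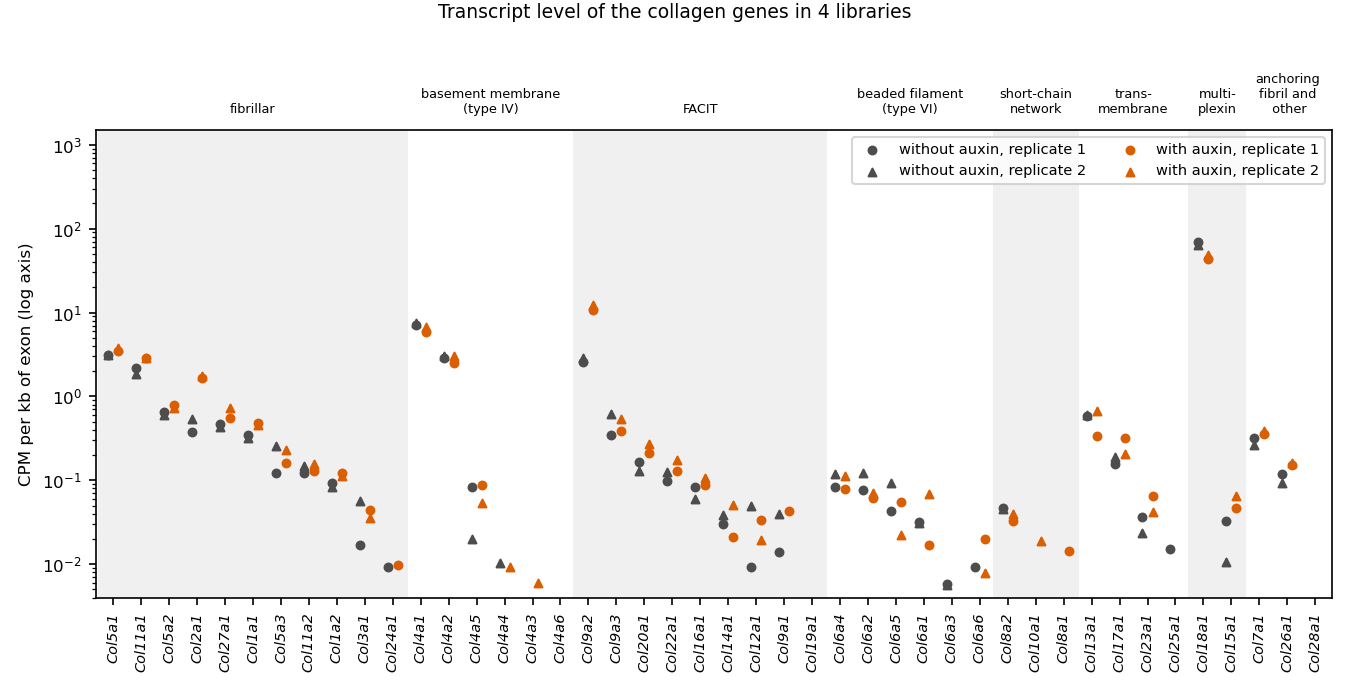
Transcript level of each collagen gene in CPM per kb of exon (log axis), grouped by class, for 2 libraries without auxin (dark) and 2 with auxin (orange). Libraries at 0 are not drawn. Col18a1 sits alone near the top, at 66.3 CPM per kb on average without auxin, and Col9a2 and Col2a1 show a wide gap between orange and dark points.

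With auxin, 3 collagen genes rose, all of them chains of cartilage fibrils, and 1 fell, the abundant basement membrane collagen Col18a1. These were Col9a2 (4.23-fold), Col2a1 (3.72-fold) and Col11a1 (1.41-fold) among the risers, while Col18a1 fell by 0.53 on the log2 scale. The other 17 tested genes were not called. Among all 13522 tested genes, 13.0% were called higher and 14.5% lower, 27.5% in all, so the collagen counts of 3 and 1 among 21 were close to or below these shares. Col9a2 and Col2a1 were the only collagen genes whose log2 fold change exceeded 1. The log2 fold change was positive in 15 of the 21 genes, with a median of 0.34, against 6988 positive of 13522 and a median of 0.01 over all tested genes. Both libraries with auxin lay above both without in 13 of the 21 (33.0% of all tested genes) and below in 2, Col18a1 and Col4a1 (31.8% of all tested genes). Col20a1 and Col26a1 reached 10 fragments in both libraries only with auxin, so their place among the tested genes leans on that group. In bulk RNA, a change in the number of expressing cells and a change in RNA per cell cannot be told apart.

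**Figure D2:**
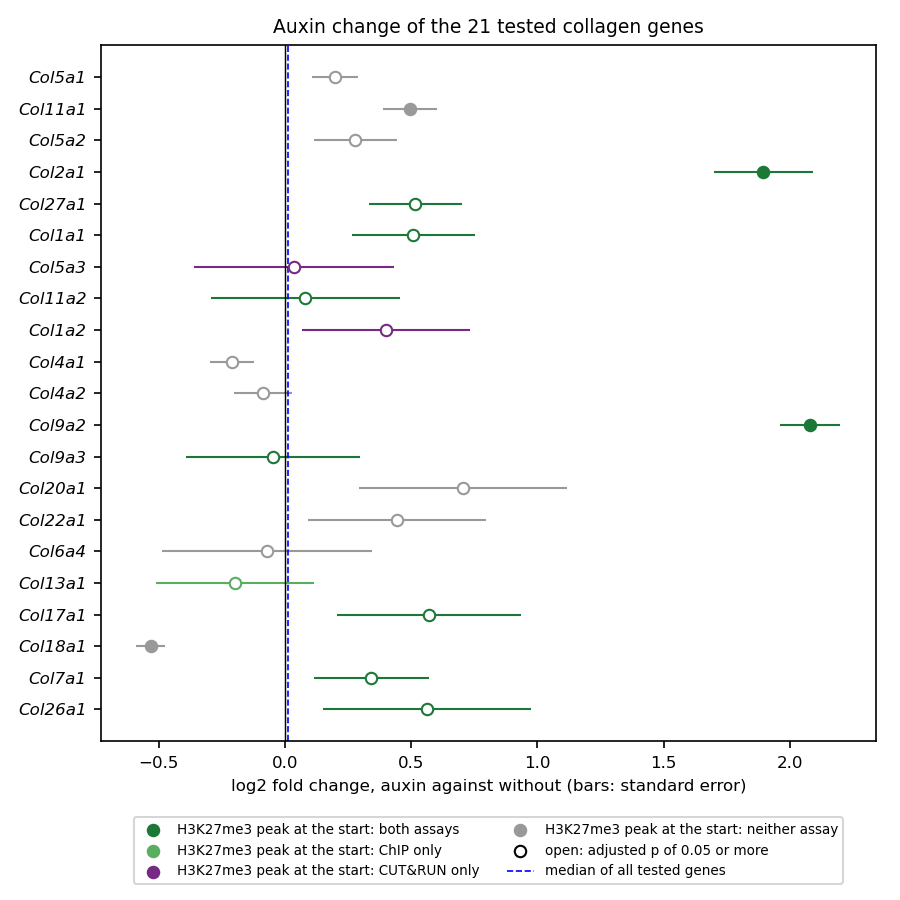
Log2 fold change with auxin against without (x axis) for the 21 tested collagen genes, with standard errors as bars. Filled points passed an adjusted p of 0.05, colours give the H3K27me3 marks at the gene start, and the dashed line is the median of all tested genes. Col9a2 and Col2a1 lie near 2, Col11a1 near 0.50, and Col18a1 at −0.53.

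Col9a2 (chromosome 4, 121039385 to 121055322, plus strand, mm10) encodes a chain of type IX collagen, which coats the type II fibrils of cartilage. Its level was 7.94 and 8.81 CPM without auxin and 32.9 and 37.8 CPM with auxin, from 113, 130, 446 and 637 fragments. Both libraries with auxin lay far above both without. The log2 fold change was 2.08 (SE 0.12, edgeR quasi-likelihood adjusted p = 9.95e-07). Per kilobase, Col9a2 went from 2.71 to 11.4 CPM per kb and passed Col4a1, at 6.32 CPM per kb with auxin, to stand second among the collagens.

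Col2a1 (chromosome 15, 97975602 to 98004695, minus strand), the only chain of type II collagen and the main fibril protein of cartilage, stood at 2.25 and 3.19 CPM without auxin and at 9.88 and 10.4 CPM with it. These values rest on 32 and 47 fragments without auxin and 134 and 175 with it, and the groups did not overlap. The log2 fold change was 1.89 (SE 0.20, edgeR adjusted p = 7.23e-05). Leaving out either library without auxin moved it to 1.67 or 2.17, and Col2a1 remained called.

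Col11a1 (chromosome 3, 114030540 to 114220718, plus strand), a chain of type XI collagen, which forms the core of cartilage fibrils, gave 21.2 and 17.97 CPM without auxin and 27.7 and 27.5 CPM with it. The groups did not overlap, but the distance between them was smaller than for the other called risers, Col9a2 and Col2a1. The log2 fold change was 0.50 (SE 0.11, edgeR adjusted p = 0.00534), and over the alternative settings its adjusted p ranged from 1.43e-07 to 0.0339.

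The partner chains of Col9a2 and Col11a1 were not called or could not be tested. Type IX collagen contains a chain each of Col9a1, Col9a2 and Col9a3. Col9a3 was at 1.33 and 2.37 CPM without auxin and 1.47 and 2.08 CPM with it (edgeR log2 fold change −0.05, SE 0.34, adjusted p = 0.933), and the groups overlapped. Col9a1 had 1 and 3 fragments without auxin and 3 and 0 with it, and was not tested. The ratio of Col9a2 to Col9a3, both in CPM per kb, was 7.40 and 4.62 without auxin and 27.8 and 22.7 with auxin. Col11a2, the partner of Col11a1 in type XI, was at 0.843 and 1.02 CPM without auxin and 0.885 and 1.07 CPM with it (log2 fold change 0.08, SE 0.37), on 12 to 18 fragments a library. At that depth a change as large as that of Col11a1 was not detectable. The Col11a1 to Col11a2 ratio was 17.8 and 12.5 without auxin and 22.2 and 18.2 with it, so the groups were separated by a gap smaller than the spread within either.

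The ratios within types I, IV and V moved little. Col4a1 to Col4a2 stood at 2.46 and 2.5 without auxin and 2.31 and 2.26 with it, and Col1a1 to Col1a2 at 3.70 and 3.82 against 3.98 and 4.10. Col5a1 to Col5a2 ratios overlapped between the groups, at 4.88 and 5.15 against 4.41 and 5.06. Col6a1 to Col6a2 ratios, at 0.422 and 0.253 against 0.272 and 0.950, rested on as few as 1 fragment and cannot be read. With 2 libraries a group, an exact permutation test cannot give a two-sided p below 0.333, so no test of the ratios was made.

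**Figure D3:**
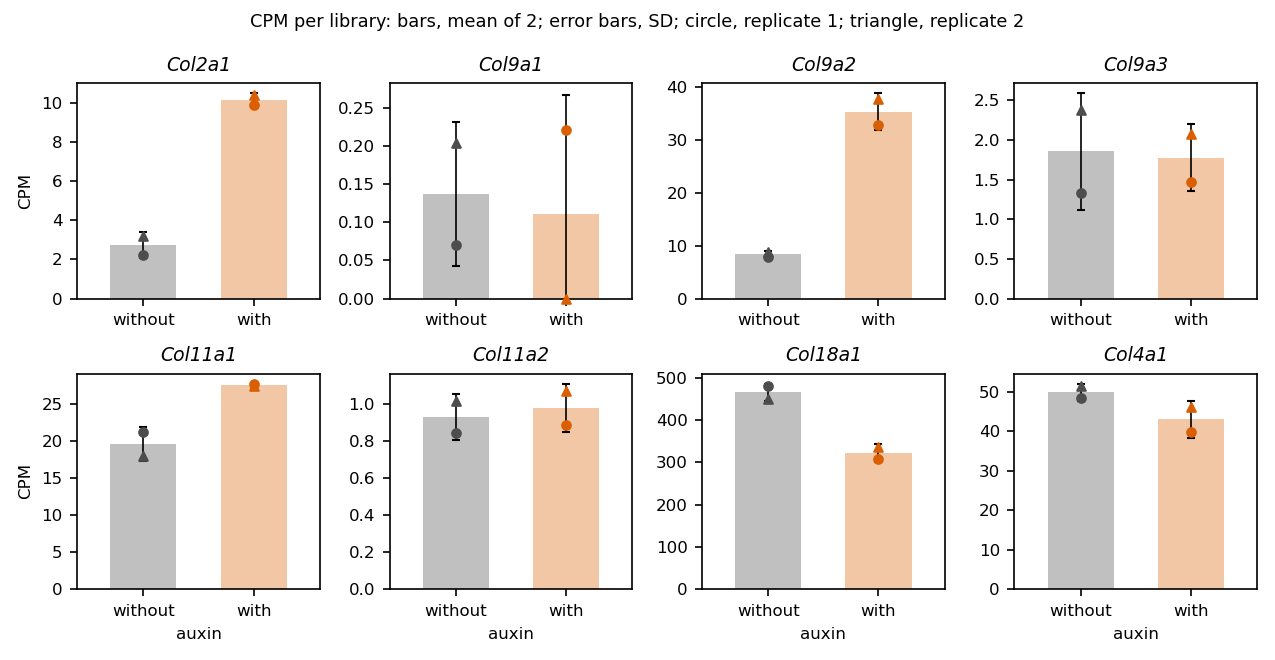
CPM (y axis, from 0, a separate scale for each gene) of 8 collagen genes without auxin (grey) and with auxin (orange). Bars are means of 2 libraries, error bars SDs, circles replicate 1 and triangles replicate 2. Col2a1 and Col9a2 separate widely, Col9a1, Col9a3 and Col11a2 overlap, and Col18a1 is lower with auxin.

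Col18a1 (chromosome 10, 77052178 to 77166548, minus strand) stood at 480 and 451 CPM without auxin and at 307 and 337 CPM with it. It was the only collagen gene called lower, by 0.53 on the log2 scale (edgeR log2 fold change −0.53, SE 0.06, adjusted p = 9.08e-05), and the groups did not overlap. Its share of all collagen fragments was 61.2% and 60.9% with auxin. As the gene is so abundant, the collagen total mainly follows it: summed over the 44 genes, the level was 638 and 613 CPM without auxin and 501 and 553 CPM with it. Without Col18a1, the other 43 genes summed to 158 and 162 CPM without auxin and 194 and 216 CPM with it, in the opposite direction. Most of that gain lay in the called risers. Their mean CPM without and with auxin was 8.38 and 35.4 for Col9a2, 19.6 and 27.6 for Col11a1, and 2.72 and 10.1 for Col2a1. The sum therefore does not describe a rise of the remaining genes. Col15a1, the other multiplexin, had 1 to 7 fragments a library and was not tested.

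The 2 type IV chains with measurable transcripts, Col4a1 and Col4a2, were not called. Their starts lie 21 bp apart on opposite strands of chromosome 8. Col4a1 was at 48.4 and 51.5 CPM without auxin and 39.8 and 46.3 CPM with it (edgeR log2 fold change −0.21, SE 0.09, adjusted p = 0.0989). Both libraries with auxin lay below both without, as in 31.8% of all tested genes, and the gene was called lower without auxin replicate 2 (adjusted p = 0.0184) and with a replicate block (adjusted p = 0.00315). Without auxin replicate 1 the Col4a1 log2 fold change was −0.11 (adjusted p = 0.468), and DESeq2 gave an adjusted p of 0.227. Col4a2 was at 19.1 and 20.0 CPM without auxin and 16.7 and 19.9 CPM with it (log2 fold change −0.09, SE 0.12), and the groups overlapped. Col4a3 and Col4a4, chains of the kidney type of network, had at most 1 fragment in any library, Col4a5 had 2 to 8, and Col4a6 had none.

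In the fibrillar class, 9 of 11 genes were tested and all 9 had a positive log2 fold change, from 0.04 to 1.89. The median was 0.40, though only Col2a1 and Col11a1 passed the threshold. Over all tested genes, 6988 of 13522 were positive, the median was 0.01 and 13.0% were called higher. Without replicate 1 without auxin, or without auxin replicate 2, 7 of the 9 were positive, as the values of Col5a3 and Col11a2 turned negative. The class members that were not tested were Col3a1 and Col24a1. In 7 of the 9 the CPM of both libraries with auxin exceeded both without, which 33.0% of all tested genes also did, and 4 had an unadjusted p under 0.05, against 40.0% of all tested genes. The most abundant of them, Col5a1, a chain that starts type I fibrils, was at 26.7 and 26.6 CPM without auxin and 29.3 and 31.7 CPM with it (edgeR log2 fold change 0.20, SE 0.09, adjusted p = 0.124, 0.0328 with a replicate block and 0.446 with DESeq2). Col27a1, a fibrillar collagen of cartilage, was at 6.11 and 5.63 CPM without auxin and 7.15 and 9.50 CPM with it (edgeR log2 fold change 0.52, SE 0.18, adjusted p = 0.0564). Its call depended on the setting. The adjusted p was 0.0470 with upper-quartile scaling, 0.0192 with the looser expression filter, 0.00380 with a replicate block and 0.00753 without auxin replicate 1. It was 0.254 with DESeq2, 0.138 without replicate 2 without auxin and 0.425 without auxin replicate 2, where the log2 fold change was 0.29. Col1a1, the main chain of type I collagen, was at 2.25 and 2.1 CPM without auxin and 3.17 and 3.03 CPM with it (edgeR log2 fold change 0.51, SE 0.24, adjusted p = 0.143), and its groups did not overlap.

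Outside these classes few genes could be tested. Among the 9 FACIT genes, 4 were tested, and Col9a2 was the only one called. Of the 6 type VI genes, which form beaded filaments, only Col6a4 was tested (log2 fold change −0.07), and Col6a2 had 7 to 15 fragments a library. None of the 3 short-chain genes, Col8a1, Col8a2 and Col10a1, was tested, the last being typical of hypertrophic cartilage and listed with 1 fragment in 1 library. The hemidesmosome collagen Col17a1 was at 0.913 and 1.08 CPM without auxin and 1.84 and 1.19 CPM with it (edgeR log2 fold change 0.57, SE 0.37, adjusted p = 0.271). Col7a1, which forms the anchoring fibrils of skin, was at 3.30 and 2.71 CPM without auxin and 3.61 and 3.98 CPM with it (edgeR log2 fold change 0.34, SE 0.23, adjusted p = 0.289). Col26a1 was at 0.702 and 0.542 CPM without auxin and 0.885 and 0.950 CPM with it (edgeR log2 fold change 0.56, SE 0.41, adjusted p = 0.340). In Col17a1, Col7a1 and Col26a1 both libraries with auxin lay above both without, as in 33.0% of all tested genes. None of them was called. Col26a1 reached 10 fragments in both libraries only with auxin. With 1 library left out at a time, the log2 fold change ranged from 0.24 to 0.88 for Col17a1 (lowest without auxin replicate 1, highest without auxin replicate 2). For Col7a1 it was lowest, at 0.20, without replicate 2 without auxin.

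Peaks of H3K27me3 lay at the start of many collagen genes in cells that had not received auxin. A gene was counted as marked when a deposited peak touched the stretch within 1 kb of its 5′ end, upstream or downstream. ChIP-seq marked 21 of the 44 collagen genes, against 9.09% of 32968 placed genes and 10.9% of genes that RefSeq calls protein-coding. CUT&RUN marked 26, against 13.2% and 14.9%. Both assays marked 19 collagen genes, or 43.2%, against 5.95% and 7.25%. CUT&RUN alone marked 7, ChIP-seq alone 2, and neither marked 16, against 83.6% of all placed genes. Each assay had 1 sample, so these shares have no replicate check, and peaks carry no test against other genes here. The count in both assays depended on peak quality: with peaks of −log10 q of at least 2 it was 7 (1.54% of all genes), namely Col9a2, Col16a1, Col12a1, Col26a1, Col11a2, Col24a1 and Col8a2. When each peak had to cover 500 bases of the window it was 5 (2.21% of all genes).

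Marks were spread over the classes. Both assays marked 5 of 11 fibrillar genes, 6 of 9 FACIT genes, 2 of 6 type IV genes, 2 of 6 type VI genes, 1 of 3 short-chain genes, 1 of 4 transmembrane genes, neither multiplexin, and 2 of 3 in the remaining class (Col7a1 and Col26a1). The 2 type IV genes, Col4a3 and Col4a4, have starts 72 bp apart and share their peaks, so they are not independent. The share of genes marked by both was 42.9% among the 21 tested collagen genes and 43.5% among the 23 below the filter, against 3.79% and 7.46% of all genes in those sets. Over the gene body, 33 collagen genes touched a ChIP-seq peak and 37 a CUT&RUN peak, against 16.9% and 23.6% of all placed genes and 24.6% and 34.4% of genes whose span lies within the range of the collagen genes. Both lists touched 33 collagen gene bodies, against 14.5% of all placed genes. Col7a1 was the most covered, with CUT&RUN peaks over 72.9% of its body, followed by Col11a2 with 61.6%.

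**Figure D4:**
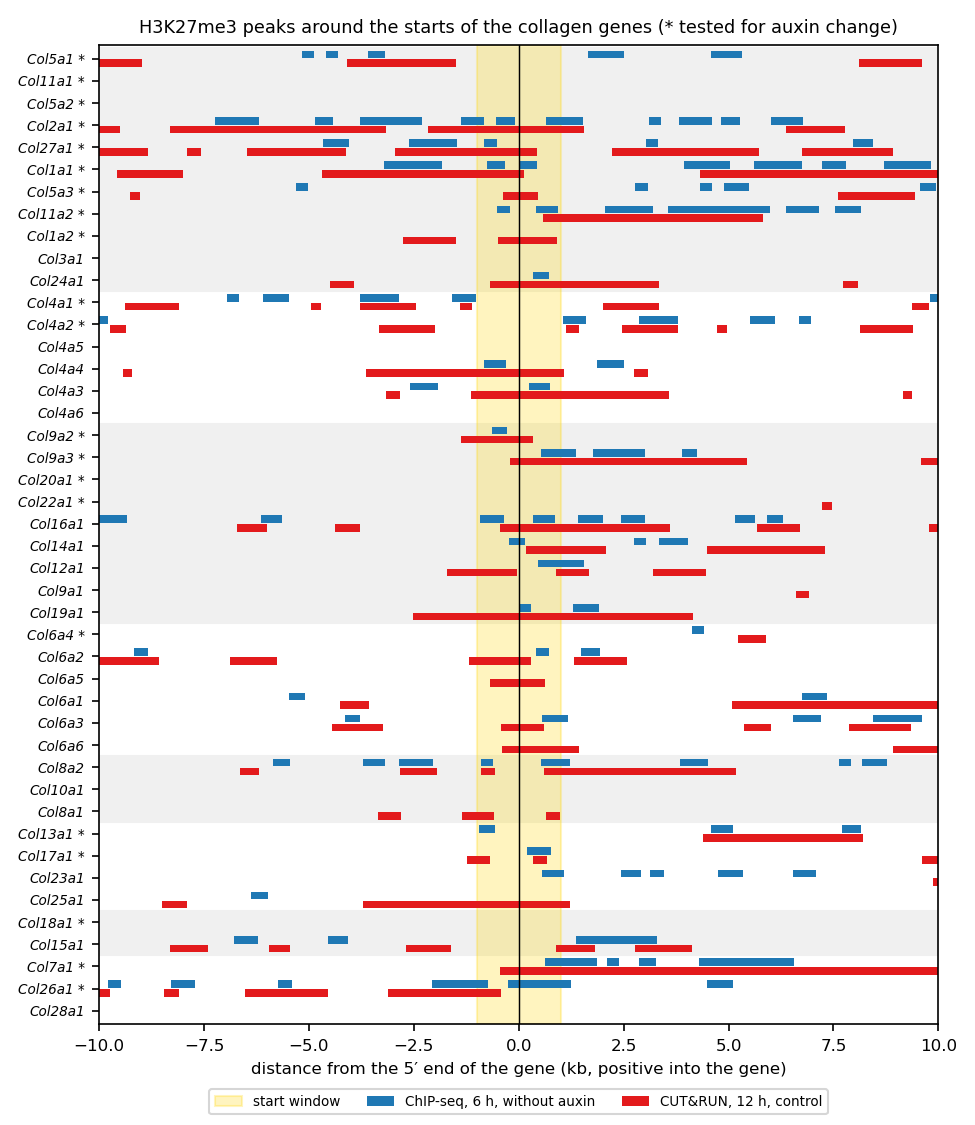
H3K27me3 peaks within 10 kb of the start of each collagen gene (x axis, kb from the 5′ end, positive into the gene) in ChIP-seq (blue) and CUT&RUN (red), 1 sample each. The shaded band is the window of 1 kb on either side, and asterisks mark tested genes. Peaks touch the band in 21 genes by ChIP-seq and 26 by CUT&RUN, while Col18a1 and Col11a1 have none.

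At Col9a2 the marks were few and close to the start. A single ChIP-seq peak of 359 bp lay between −645 and −287 bp from the start (chromosome 4, 121038740 to 121039098, authors' fold enrichment 3.80). A single CUT&RUN peak of 1714 bp ran from −1369 to 344 bp (121038016 to 121039729, fold 3.14) and so covers the sequence printed for Col9a2. Col2a1 had more and wider peaks, with a CUT&RUN peak of 3706 bp over its start (chromosome 15, 98003145 to 98006850) and 3 ChIP-seq peaks touching the window. Col9a3, which was not called, also lay under a CUT&RUN peak, of 5665 bp, that reached from −220 to 5444 bp. A peak at the start therefore occurred both at the genes that rose most and at a partner chain with no call.

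Among the 9 tested collagen genes marked by both assays, 2 rose (Col9a2 and Col2a1), none fell and 7 were not called, with 8 positive values and a median log2 fold change of 0.52. Col26a1, among the positive values, reached 10 fragments in both libraries only with auxin. The marks of the risers depended on the peak filter. With −log10 q of at least 2, Col2a1 lost its CUT&RUN mark (best value 1.66). With 500 bases of the window covered, Col9a2 and Col2a1 both lost their ChIP-seq mark. All 512 tested genes with both marks had 18.2% higher, 3.52% lower and a median of 0.29. Among the 9 tested collagen genes without a mark, Col11a1 rose, Col18a1 fell and 7 were not called, with a median of 0.20, against 12.3% higher, 15.6% lower and a median of 0.00 among all 12060 unmarked tested genes. Neither gene body nor start of Col18a1 and Col11a1 touched a peak in either assay, and the same held for Col5a2, Col3a1, Col4a5, Col4a6 and Col10a1. Whether H3K27me3 at these genes differed with auxin was not analysed here.

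The starts of collagen genes had a lower median CpG ratio than those of genes in general, a difference that was not tested. RefSeq windows from 250 bases before to 50 after a start were at hand for 35 of the 44 genes. Their median ratio of observed to expected CpG was 0.470, against 0.577 over 17318 genes. It was 0.480 in the 12 collagen genes marked by both assays, close to the 0.489 of all such genes, and 0.276 in 14 unmarked collagen genes, against 0.615 of all unmarked genes. The letters GCGTG, the core of the AhR element, occurred on either strand in 9 of 35 collagen windows (25.7%), against 38.9% of all windows. The letters AACAAT, a core bound by SOX factors, which drive cartilage genes, occurred on either strand in 1 collagen window, that of Col3a1 (2.86%, against 9.30% of all windows). The motifs do not overlap each other, and neither was found in the windows of Col9a2, Col11a1 and Col18a1. Col2a1, which also rose, had no window and was not scanned.

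The genes that modify, fold and export collagen were mostly not called. Of 19 tested, 4 rose, 1 fell and 14 were not called, with a median log2 fold change of 0.13. Serpinh1, the collagen chaperone HSP47, rose from 81.6 and 84.0 CPM to 118 and 117 CPM (edgeR log2 fold change 0.50, SE 0.06, adjusted p = 0.000166), and P4ha1, a prolyl hydroxylase subunit, rose from 26.3 and 26.1 to 33.6 and 34.9 CPM (log2 fold change 0.39). The other risers, Sec23a and Fkbp14, and the faller, the lysyl hydroxylase Plod2 (log2 fold change −0.24, adjusted p = 0.0247), depended on the setting: with DESeq2 their adjusted p was 0.0709, 0.286 and 0.0617. Sec23a and Plod2 also lost the call without replicate 2 without auxin (0.174 and 0.149) and without auxin replicate 1 (0.0729 and 0.100), and Fkbp14 without any single library (0.102 to 0.142) and with RLE factors (0.0508). Sec23a and Fkbp14 are named after their values were seen. None of the 11 tested genes of procollagen maturation and crosslinking was called with all 4 libraries by edgeR or DESeq2. None had an unadjusted p under 0.05 by edgeR, against 40.0% of all tested genes, and 11 genes are few for a comparison. Without replicate 2 without auxin, Loxl4, a lysyl oxidase homologue named after its values were seen, was called higher (edgeR adjusted p = 0.0401, against 0.223 with all libraries).

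Among collagen receptors, 3 of 6 tested rose, 1 fell and 2 were not called. Over all tested genes 13.0% rose and 14.5% fell, and 6 genes are too few to compare with these shares. Ddr1, a receptor tyrosine kinase that binds collagen, went from 35.1 and 29.6 CPM to 44.8 and 44.4 CPM (log2 fold change 0.46, edgeR adjusted p = 0.00392), and the endocytic receptor Mrc2 from 2.18 and 3.32 to 5.24 and 6.47 CPM (log2 fold change 1.09, adjusted p = 0.00617). The third, Ddr2, named after its values were seen (log2 fold change 1.19, adjusted p = 0.0125), lost its call with DESeq2 (0.0691) and without replicate 1 without auxin (0.0833). The integrin chain Itga1 fell (log2 fold change −1.09, adjusted p = 0.0413) on 10 to 27 fragments a library, and lost its call without any single library (adjusted p 0.0741 to 0.251). Of the 2 tested collagen-degrading enzymes, the membrane protease Mmp14 fell from 59.7 and 52.8 to 41.7 and 42.2 CPM (log2 fold change −0.42, adjusted p = 0.00307).

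The genes of proteins that share the basement membrane with Col18a1 and type IV collagen were called in both directions, as were all tested genes. Of 13 tested, 4 rose, 2 fell and 7 were not called, with a median log2 fold change of 0.14. Over all tested genes 13.0% rose, 14.5% fell and the median was 0.01, and 13 genes are too few to compare with these shares. Hspg2, the heparan sulfate proteoglycan perlecan, fell from 832 and 868 to 607 and 631 CPM (edgeR log2 fold change −0.46, SE 0.05, adjusted p = 8.78e-05), close in size to the Col18a1 change of −0.53. Nid2 also fell (log2 fold change −0.23), while its paralogue Nid1, a linker between laminin and type IV collagen, rose from 412 and 418 to 641 and 654 CPM (log2 fold change 0.64, adjusted p = 5.11e-06). The laminin chain Lama5 rose (log2 fold change 0.39), and Lamb1 and Lama1, named after their values were seen, were also called higher, Lama1 not with DESeq2 (adjusted p = 0.0855), nor without replicate 2 without auxin (0.244) or auxin replicate 1 (0.105).

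Of 6 tested proteins that accompany type II and IX collagen in cartilage, 3 rose, 1 fell and 2 were not called. Over all tested genes 13.0% rose and 14.5% fell, and 6 genes are too few to compare with these shares. Comp, a matrix protein that binds these collagens, rose from 0.843 and 1.22 to 3.69 and 3.50 CPM (edgeR log2 fold change 1.79, SE 0.29, adjusted p = 0.00114). Acan, the cartilage proteoglycan aggrecan, rose from 5.27 and 5.63 to 8.33 and 8.73 CPM (log2 fold change 0.65, adjusted p = 0.0120), a call that DESeq2 did not make (adjusted p = 0.104). Matn1, named after its values were seen, rose (log2 fold change 0.79, adjusted p = 0.0413) and Matn3 fell (log2 fold change −1.36, adjusted p = 0.0429). Both lost the call with DESeq2 (Matn1 0.264, no adjusted p for Matn3) and in some single-library omissions (0.0811 to 0.225 for Matn1, 0.0849 to 0.237 for Matn3, lost in every one). Sox9, the factor that switches on Col2a1 in cartilage, had 6 and 6 fragments without auxin and 6 and 11 with it and was not tested.

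Markers of other cells that make collagen were measured beside these genes. The 12 fibroblast markers summed to 93.4 and 99.1 CPM without auxin and 105 and 107 CPM with it. Fbln1 made up most of the sum (mean CPM 75.5 without and 79.2 with auxin). The 6 tested markers had a median log2 fold change of 0.10. Pdgfrb was the only one called (log2 fold change 1.45, edgeR adjusted p = 0.00313, mean CPM 4.46 without and 12.1 with auxin). Thy1, Twist1 and Fbln1 had small positive values (0.18, 0.14 and 0.07). Tagln and Acta2 had negative ones (−0.42 and −1.05, edgeR adjusted p = 0.0853 and 0.122). The sum therefore does not describe a rise of the markers other than Pdgfrb. Fap had no fragment in any library. The 10 primitive endoderm markers summed to 17.6 and 20.3 CPM without auxin and 26.2 and 29.3 CPM with it. Of the 7 tested, Dab2 (log2 fold change 0.85) and Pdgfra (0.77) were called higher, and Ttr had no fragment. The 7 had a median log2 fold change of 0.65, and 4 had an unadjusted edgeR p under 0.05, against 40.0% of all tested genes. The number called higher was 3 with upper-quartile scaling, 4 of 9 with the looser filter, 4 with a replicate block and 1 of 9 with DESeq2. For comparison with both marker lists, 13.0% of all tested genes were called higher and 14.5% lower. The Pdgfra call was lost with DESeq2 (adjusted p = 0.226) and in 3 of 4 single-library omissions (0.0735 to 0.184). Their part in the collagen results was not tested.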

How the data were processed

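The deposited RNA table gives, for each gene name, raw fragment counts and the exon length. Per the file headers, the authors counted pairs with featureCounts 1.6.3 (exons, reverse strand, mm10 annotation), so antisense genes were kept apart. The submitters' processing notes name STAR 2.6.1d, Bowtie2 2.4.1 and MACS2 2.1.1. The deposited peak lists, from 1 sample each, hold the authors' score, fold enrichment and −log10 p and q values. Peak control, cutoff and depth: not given in the sources used here.

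Counts of all genes were fitted with edgeR 4.0.16 in R 4.3.3 (TMM, default filter, quasi-likelihood test, two-sided, Benjamini-Hochberg over 13522 genes, threshold 0.05), without a replicate block. SE was computed as the absolute log2 fold change divided by the root of F. Replicate counts were unlike beyond sampling noise (chi-square over its degrees of freedom 3.86 and 11.1). Peaks were matched to gene starts by an overlap of at least 1 base. The fit and the overlaps were tested on simulated data. Alternatives were other scalings, a filter of at least 1 read, DESeq2 1.42.0, a replicate block, each library left out, and other windows and peak filters. Collagen genes described in full were those called, the 5 highest without auxin and the tested ones marked by both assays, and list genes were named by smallest p, at most 2 a direction. The members and lists were chosen with earlier results of these data known. Per the labels, 100 bp pairs came from dUTP libraries of polyadenylated RNA.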

Additional observations from a re-analysis of the deposited data

How the results depend on the processing

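The same-numbered libraries share only a number in the labels. Across the tested genes, the log2 difference between replicates 1 and 2 without auxin correlated at 0.30 with the same difference with auxin. With a replicate block, collagen genes called went from 3 to 5 higher (Col27a1 and Col5a1 added) and from 1 to 2 lower (Col4a1 added), and all genes called from 3723 to 6149. DESeq2 called 2329 genes in all, and the same 4 collagen genes. Leaving out 1 library at a time gave 2482 to 3619 genes, 3 to 4 collagen genes higher and 1 to 2 lower, the second being Col4a1 without auxin replicate 2. Of 126 alternative values for 14 named collagen genes, 114 kept direction and side of the threshold, 7 gained a call, none lost one, and 5 changed sign, all in genes not called and with 1 library left out. The 114 include the DESeq2 values of Col26a1 and Col11a2, which kept direction but had no DESeq2 adjusted p. Over the single-library omissions the log2 fold change ranged from −0.398 to 0.424 for Col9a3 and from −0.222 to 0.0223 for Col4a2. For Col11a2 it ranged from −0.0702 to 0.217. With 1 library left in a group, that library is assumed to vary like the others. With peaks of −log10 q of at least 2, 10 collagen genes were marked by ChIP-seq, 16 by CUT&RUN and 7 by both. With 500 bases of the window covered, ChIP-seq marked 7 and both assays 5. With any overlap of the gene body, ChIP-seq marked 33 and both assays 33. Windows of 500 bases or 2.5 kb on either side gave 13 and 23 genes marked by both (3.51% and 10.4% of all genes). Fewer than 20 fragments a library in most collagen genes limit what changes could be seen, and single peak samples have no replicate check.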
